A study of Mus musculus with 8 samples.

Results

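Transcripts of 9 neuropeptide genes were followed in newborn mouse olfactory mucosa after conditional deletion of homeodomain factor Emx2 in mature olfactory sensory neurons (OSNs). The genes were Cartpt, Gnrh1, Gal, Cck, Tac1, Penk, Sst, Vip and Adcyap1, which are 9 of the 19938 genes named singly by at least 1 transcript cluster of the arrays. Each of the 9 genes had exactly 1 such cluster, so no choice between clusters was needed. Cartpt was selected on the measured values of these same arrays, so its difference between genotypes is given below as a description with no test. The other 8 were listed by name as neuropeptide precursors, but with earlier results of these data already known. Their p-values and intervals are therefore not those of genes chosen blind to the data.

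The mice came from matings on a mixed 129 x C57BL/6J background and were taken at postnatal day 1, with 1 mouse per Affymetrix mouse gene array. The 4 knockouts were OmpCre:Emx2(fl/fl), in which Cre is inserted at the Omp locus and acts in mature OSNs. Controls 1 to 3 were littermates with the genotype OmpCre:Emx2(fl/+), carrying Cre and 1 floxed allele, whereas control 4 had the genotype Emx2(fl/fl) and no Cre. Every mouse therefore carried at least 1 floxed allele, and all except control 4 carried Cre. Replicate numbers only name the mice and pair none of them, and the labels give neither litter nor sex.

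The deposited values were log2 signals, on which 1 unit is a doubling, and ranged from 2.65 to 14.86 over all arrays. Emx2 was lower in the knockouts by 0.55 ± 0.08 (SE, n = 4 mice per group), a fold of 0.684 with no overlap between groups, so its mRNA was still measured there; its adjusted p by limma was 0.201. Omp, which marks mature OSNs, lay between 12.6 and 13.4 in the 8 mice, which was the check made of the tissue label. By the study's methods a cluster value merges probes from every exon of a gene, so any exon left in place by Cre would also enter the Emx2 value. The study also reports that OmpCre recombined a reporter in only part of the cells of the mature OSN layer. Whether every mature OSN lost Emx2 was not tested here. Control 2 stood apart on the first principal component, at 32.9 against -11.8 to 6.11 in the other mice. The mean signal of 12 immune cell genes was 9.96 in control 2 and 8.85 to 9.01 in the other 7 mice. Y-linked genes averaged 10.5 to 10.7 in controls 2 to 4 and knockout 3, 8.09 in control 1 and 7.05 to 7.51 in knockouts 1, 2 and 4, so this signal was unevenly spread over the groups. Over the 21789 clusters tested, the median difference between knockouts and controls was 0.0024.

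Neuropeptides are made as larger precursors that enter the secretory pathway, are cut by prohormone convertases, trimmed by carboxypeptidase E and often amidated. They are stored in dense-core granules, whose matrix contains the chromogranins and secretogranins, and mostly act on G protein-coupled receptors. In the nose, GnRH neurons are born in the olfactory placode and migrate along olfactory and vomeronasal axons to the forebrain, while sensory and autonomic nerve fibers of the mucosa are well known to contain substance P, vasoactive intestinal peptide and other peptides. In whole mucosa, fewer cells of a type and less RNA per cell cannot be told apart.

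Several of these genes are classical targets of cAMP signaling, which acts through the cAMP response element (CRE). The promoters of 7 of the 9 genes were read from RefSeq on build GRCm38.p6, from 250 bases before to 50 bases after the transcription start. They are shown for Cartpt and Tac1, the pair of genes whose arrays separated by genotype, and for Sst and Vip, whose CREs are textbook examples. Capitals mark the full CRE TGACGTCA, its half-site TGACG on either strand (in Tac1, read on the opposite strand) and the homeodomain core TAATTA. The windows are chr13:99900634-99900933 (minus strand), chr6:7554811-7555110 (plus strand), chr16:23890795-23891094 (minus strand) and chr10:5638968-5639267 (plus strand), each written along its gene.
Cartpt: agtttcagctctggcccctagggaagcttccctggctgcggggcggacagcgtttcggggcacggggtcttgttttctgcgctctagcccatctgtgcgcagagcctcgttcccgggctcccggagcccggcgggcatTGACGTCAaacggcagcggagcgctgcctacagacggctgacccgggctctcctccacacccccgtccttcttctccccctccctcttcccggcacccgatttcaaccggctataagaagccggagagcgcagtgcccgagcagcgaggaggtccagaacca
Tac1: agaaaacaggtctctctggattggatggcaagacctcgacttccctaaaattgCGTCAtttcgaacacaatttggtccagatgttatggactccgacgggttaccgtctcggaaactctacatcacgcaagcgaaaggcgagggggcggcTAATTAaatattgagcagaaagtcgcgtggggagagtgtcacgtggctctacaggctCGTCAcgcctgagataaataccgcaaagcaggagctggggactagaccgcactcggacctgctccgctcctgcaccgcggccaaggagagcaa
Sst: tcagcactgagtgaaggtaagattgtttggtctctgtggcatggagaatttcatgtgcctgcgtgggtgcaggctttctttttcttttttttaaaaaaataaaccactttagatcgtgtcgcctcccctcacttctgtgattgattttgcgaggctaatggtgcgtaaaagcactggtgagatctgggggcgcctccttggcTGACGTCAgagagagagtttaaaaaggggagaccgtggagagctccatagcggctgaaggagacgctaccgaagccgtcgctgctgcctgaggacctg
Vip: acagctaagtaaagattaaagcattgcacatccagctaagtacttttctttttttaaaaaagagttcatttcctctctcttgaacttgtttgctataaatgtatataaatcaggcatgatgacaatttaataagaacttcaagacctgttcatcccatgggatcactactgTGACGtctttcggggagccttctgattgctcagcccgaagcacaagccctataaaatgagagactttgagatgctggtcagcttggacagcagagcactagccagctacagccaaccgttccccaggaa

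The full CRE was found in Cartpt, starting at -112 from the transcription start, and in Sst, starting at -48. Of all 32851 promoter windows of this length in the table, 1.79% held it on either strand. The half-site, which every full CRE contains on both strands, was present in all 7 genes and in 20.8% of all windows. A gene was counted if any of its windows held the motif, and Adcyap1 had a pair of windows. In Vip the half-site started at -79, in Cck at -47 and in Adcyap1 at -91 (first window), and Tac1 had a pair of matches at -197 and -43. The Gal match lay downstream of the start, at position 20. The homeodomain core TAATTA, a type of sequence that factors such as Emx2 and Lhx2 can bind, was present in Tac1 at -100. It was in no window of the other 6 genes, against 5.29% of all windows. The core CCCNNGGG of Olf1/Ebf sites was present in Cartpt, Gal, Cck and Vip and in 13.7% of all windows, and TATAAA in Vip and Adcyap1 and in 13.6%. These matches describe letters in the windows and are not evidence of binding.

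**Figure D1:**
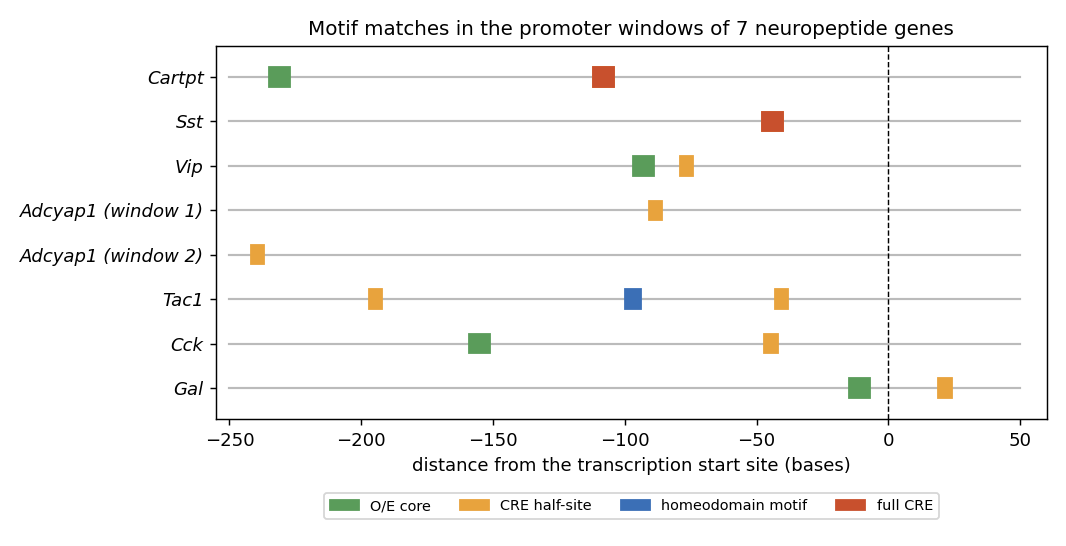
Motif matches on either strand in the promoter windows of 7 neuropeptide genes (8 windows, since Adcyap1 has a pair), by distance in bases from the transcription start (dashed line). Boxes are drawn to the length of each motif. Full CREs occur in Cartpt and Sst, and the homeodomain motif occurs in Tac1.

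Cartpt encodes the precursor of the CART peptides, which are known for roles in feeding, reward and stress. Its log2 signal was 10.99, 11.27, 11.06 and 11.28 in controls 1 to 4, and 11.29, 11.72, 11.69 and 11.81 in knockouts 1 to 4. All 4 knockouts were above all 4 controls, although knockout 1 lay only 0.0153 above control 4, while knockouts 2 to 4 stood well clear. The mean was 11.15 ± 0.15 in controls and 11.63 ± 0.23 in knockouts (SD, n = 4), a difference of 0.48 ± 0.12 (SE) or 1.39-fold. This is the difference on which the gene was chosen, and it is not tested. Of all clusters, 3.1% had groups that did not overlap in either direction (675 of 21789, 353 of them higher in knockouts), and nothing is read from the place of Cartpt among them.

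With each mouse left out in turn, the Cartpt difference ranged from 0.42 without knockout 4 to 0.59 without knockout 1, the knockout with the lowest signal. Without control 4, the mouse lacking Cre, it was 0.52, and without control 2, the mouse with high immune cell signals, it was also 0.52. Among the 4 mice with high Y-linked signal it was 0.49 (3 controls and knockout 3), and among the 4 with low signal it was 0.62 (control 1 and 3 knockouts). Because the groups do not overlap, the sign of these values is fixed, and only their sizes are informative.

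Tac1 encodes the precursor of substance P and neurokinin A. Its signal was 6.618, 6.588, 6.699 and 6.515 in controls 1 to 4, and 7.251, 6.785, 6.904 and 6.996 in knockouts 1 to 4. The groups did not overlap, with a gap of 0.0856 between control 3 and knockout 2, and the highest value was in knockout 1, the knockout in which Cartpt was lowest. The mean was 6.61 ± 0.08 in controls and 6.98 ± 0.20 in knockouts (SD, n = 4), a difference of 0.38 ± 0.10 (SE) or 1.30-fold with a 95% interval from 0.16 to 0.60. Its unadjusted p by limma was under 0.05 and ranked 109 of 21789, but its adjusted p was 0.693. Tac1 therefore did not pass the test across all clusters. The difference was 0.29 without knockout 1. Within the mice of high and low Y-linked signal it was 0.30 and 0.39, with 1 knockout in the high class and 1 control in the low class.

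Of the 8 genes other than Cartpt, 0 passed an adjusted p of 0.05 by limma, and 0% of all clusters did so, the smallest adjusted p being 0.0653. By the methods' t-test after adjustment the number of these genes was also 0. Tac1 was 1 of the 8 at an unadjusted p under 0.05, by limma and by the methods' t-test alike, whereas 5.17% of all clusters reached that level by limma (1126 of 21789). Tac1 was also 1 of the 8 with groups that did not overlap, beside 3.1% of all clusters (675 of 21789). With 1 gene of 8, these counts are not a result about the group. Only Cartpt and Penk lay in the upper part of the signal range, above the median of all clusters. The files give no detection call, so for the other 7 it is not known how far their signals stood above background.

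**Figure D2:**
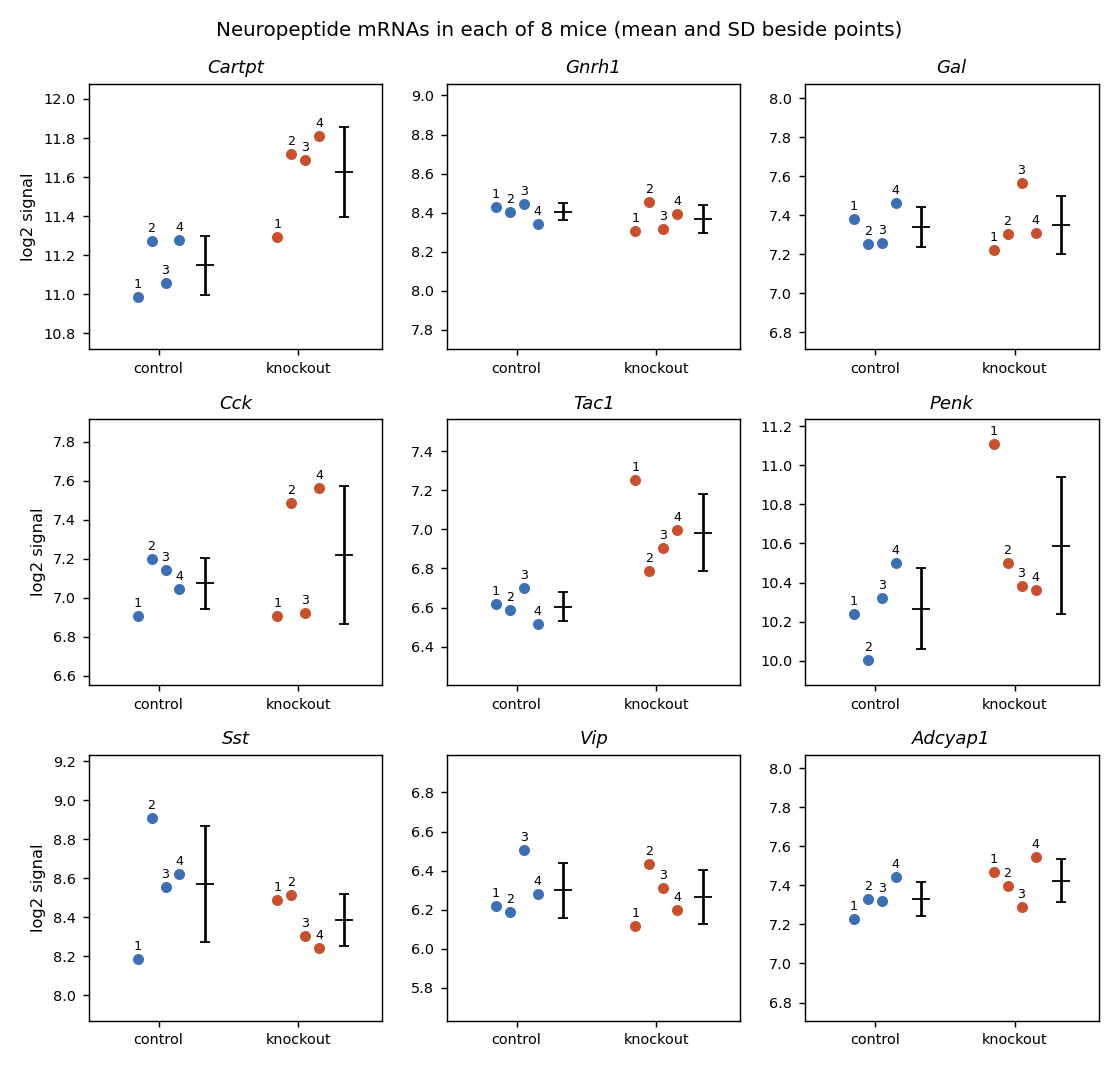
Log2 signal of each neuropeptide gene in 4 control (blue) and 4 knockout (orange) mice, numbered by replicate, with the group mean and SD beside the points. All panels span the same number of log2 units. The groups do not overlap for Cartpt and Tac1 and overlap for the other 7 genes.

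Penk encodes proenkephalin, the precursor of the enkephalin opioid peptides. Its signal was 10.238, 10.003, 10.320 and 10.502 in controls 1 to 4, and 11.107, 10.499, 10.384 and 10.362 in knockouts 1 to 4. Knockout 1 was far above the rest, while knockouts 2 to 4 lay within the upper part of the control range. The difference was 0.32 ± 0.17 (SE, n = 4 per group; 1.25-fold, adjusted p = 0.910), with a 95% interval from -0.07 to 0.72. Without knockout 1 it was 0.15, and it was 0.11 among the mice with high Y-linked signal against 0.42 among those with low signal. The high class held 1 knockout and the low class 1 control. Knockout 1 thus carried much of the Penk difference and also gave the highest Tac1 signal.

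Sst encodes somatostatin, an inhibitory peptide of interneurons and endocrine cells. Its signal was 8.19, 8.91, 8.56 and 8.62 in controls 1 to 4, and 8.49, 8.51, 8.30 and 8.24 in knockouts 1 to 4. Controls 2 to 4 were above all 4 knockouts, but control 1 was below all of them. The difference was -0.18 ± 0.14 (SE, n = 4 per group; adjusted p = 0.910), with a 95% interval from -0.50 to 0.14. It was -0.31 without control 1, when the groups no longer overlapped and the unadjusted p fell under 0.05 (adjusted p = 0.621), and -0.07 without control 2, which had the highest Sst and the high immune cell signal. By Y-linked signal it was -0.39 in the high class and 0.23 in the low class, so its direction differed between the classes; the part of immune cell content or sex in it was not tested.

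Cck encodes cholecystokinin, a gut hormone that is also an abundant brain neuropeptide. Its signal was 6.91, 7.20, 7.14 and 7.04 in controls 1 to 4, and 6.91, 7.49, 6.92 and 7.56 in knockouts 1 to 4. The knockouts fell into a high pair, knockouts 2 and 4, and a low pair, knockouts 1 and 3, with the controls 2 to 4 between them. The difference was 0.14 ± 0.16 (SE, n = 4 per group; adjusted p = 0.923), with a 95% interval from -0.22 to 0.51. Leaving out knockout 4 made it 0.03 and leaving out knockout 1 made it 0.25. It was -0.21 in the high Y-linked class, which held 1 knockout, and 0.41 in the low class, which held 1 control.

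Gnrh1 encodes gonadotropin-releasing hormone, the peptide by which the neurons migrating from the nose later control the pituitary. Its signal was 8.43, 8.40, 8.44 and 8.34 in controls 1 to 4, and 8.30, 8.46, 8.32 and 8.39 in knockouts 1 to 4. The groups overlapped almost fully, and the pooled SD within groups, 0.059, was the smallest of the 9 genes. The difference was -0.04 ± 0.05 (SE, n = 4 per group; 0.975-fold, adjusted p = 0.938), and it became 0.06 when arrays were scaled to mature OSN genes, a scaling that moved the median of all clusters to 0.10. Its 95% interval ran from -0.15 to 0.07, so a change of array signal as large as that of Tac1 lay outside the interval. Gnrh1 lay below the median of all clusters and has no detection call. The interval therefore describes the signal and cannot exclude such a change of Gnrh1 mRNA.

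Adcyap1 encodes PACAP, a peptide that raises cAMP in its target cells. Its signal lay between 7.23 and 7.44 in controls and between 7.29 and 7.54 in knockouts, with a difference of 0.09 ± 0.07 (SE, n = 4 per group; adjusted p = 0.910), which was 0.05 without knockout 4. Gal, the precursor of galanin, lay between 7.25 and 7.46 in controls and between 7.22 and 7.56 in knockouts. Its difference of 0.01 ± 0.08 (adjusted p = 0.993) had a 95% interval from -0.18 to 0.20 and changed sign with array weights or with control 2, control 3 or knockout 3 left out. Vip, the precursor of vasoactive intestinal peptide, lay between 6.19 and 6.50 in controls and between 6.12 and 6.43 in knockouts. Its difference of -0.03 ± 0.09 (adjusted p = 0.970) changed sign when arrays were scaled to mature OSN genes, with Y-linked signal as a covariate, or with control 3 or knockout 1 left out. For these 3 genes the groups overlapped over most of their range.

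**Figure D3:**
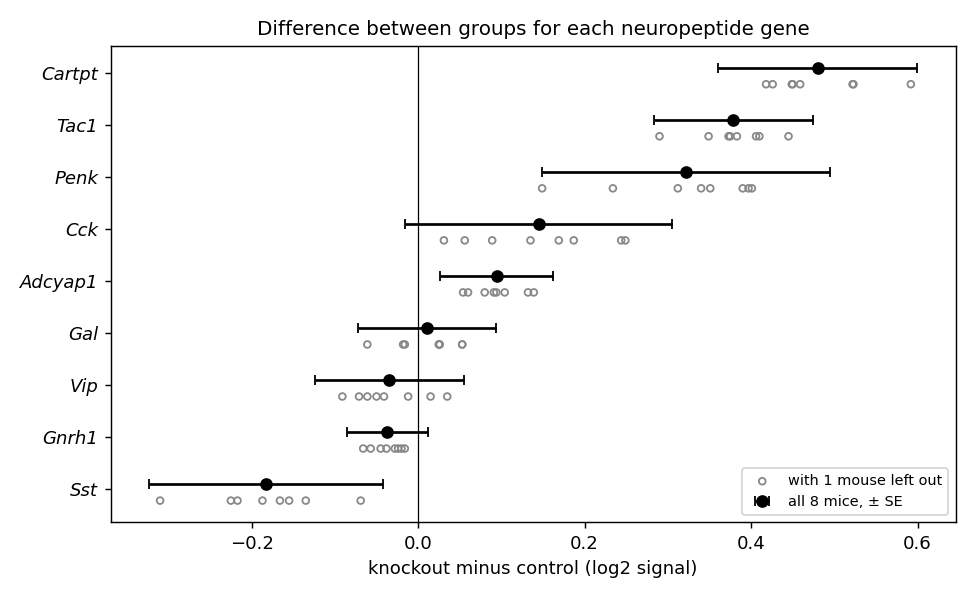
Knockout minus control difference in log2 signal for each neuropeptide gene. Filled points are the differences over all 8 mice with their standard errors, and open circles are the differences with 1 mouse left out at a time. Penk reaches down to 0.15 without knockout 1, and the circles of Gal and Vip fall on both sides of 0.

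The other genes of the pathway were set beside the 5.17% of all clusters at an unadjusted p under 0.05. Groups did not overlap in 3.1% of all clusters. Of 48 further neuropeptide precursors, 18 had a higher and 30 a lower mean in knockouts, with a median difference of -0.01, and 0 reached an unadjusted p under 0.05 by limma. Their differences ran from -0.28 for Calcb, a calcitonin gene-related peptide, to 0.15 for Grp, which encodes gastrin-releasing peptide. Calcb was highest in control 2, at 8.18 against 7.42 to 7.71 in the other controls and 7.23 to 7.63 in knockouts (difference -0.28 ± 0.16 SE, adjusted p = 0.910). Avp, the vasopressin gene, differed by 0.11 ± 0.06 and Crh, which encodes corticotropin-releasing hormone, by -0.11 ± 0.09. None of the precursors outside the 9 genes had groups that did not overlap.

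Among 20 receptors for the peptides of the genes other than Cartpt, for which no receptor was listed, 10 had a higher and 10 a lower mean, with a median difference of 0.00. Of these, 1, the neurokinin receptor gene Tacr2, had an unadjusted p under 0.05, at 7.30, 7.06, 7.37 and 7.29 in controls and 6.88, 7.24, 6.97 and 6.98 in knockouts (-0.24 ± 0.09 SE, adjusted p = 0.910). Its groups overlapped because control 2 was below knockout 2. Tacr1, the main receptor of substance P, differed by -0.24 ± 0.17 with a larger spread (adjusted p = 0.910). Sstr2, a somatostatin receptor, differed by 0.16 ± 0.07, and Vipr2, a receptor of both vasoactive intestinal peptide and PACAP, by 0.18 ± 0.09.

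Of 12 processing enzymes measured, 6 were higher and 6 lower, and 1 reached an unadjusted p under 0.05. This was the proprotein convertase Pcsk5, with a difference of 0.19 ± 0.08 (SE, n = 4 per group; adjusted p = 0.910). Pcsk1, a principal convertase of neuropeptide precursors, differed by -0.26 ± 0.15 because controls 2 and 4 were high, at 8.84 and 8.54, against 8.04 to 8.24 in knockouts. Cpe, encoding carboxypeptidase E, differed by -0.11 ± 0.06, and Pam, the amidating enzyme, by 0.09 ± 0.07. Among 9 peptide-degrading enzymes, 5 were higher and 4 lower with 0 at that level. Ece2, an endothelin-converting enzyme gene, had groups that did not overlap, with a small difference of 0.07 ± 0.04 (adjusted p = 0.910). Mme, which encodes neprilysin, differed by 0.22 ± 0.11.

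Of 14 genes of secretory granules, 6 were higher and 8 lower, and 3 (21.4%) had an unadjusted p under 0.05, all of them lower in knockouts. Syt7, a calcium sensor of exocytosis, was 10.75, 10.61, 10.48 and 10.65 in controls and 10.42, 10.26, 10.43 and 10.38 in knockouts. Its groups did not overlap (-0.25 ± 0.07 SE, adjusted p = 0.739). The granule matrix proteins Chga and Chgb differed by -0.19 ± 0.07 and -0.23 ± 0.09 (adjusted p = 0.910 for each), and their groups overlapped. The median difference over the 14 genes was -0.01, so the others lay on both sides of 0.

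In a list of 20 genes of GnRH neuron migration and development, 11 were higher and 9 lower, and 2 had an unadjusted p under 0.05. The semaphorin and VEGF coreceptor gene Nrp1 differed by 0.19 ± 0.06 (SE, n = 4 per group; adjusted p = 0.891). Dcc, the netrin receptor gene, was 8.51, 8.89, 8.79 and 8.99 in controls and 9.47, 8.98, 9.16 and 9.03 in knockouts (0.37 ± 0.13, adjusted p = 0.910), again with knockout 1 the highest. The groups of Plxna1, a semaphorin coreceptor gene, did not overlap, with a difference of -0.08 ± 0.04 (adjusted p = 0.910). Prok2, which encodes a ligand needed for olfactory bulb development and GnRH neuron migration, differed by -0.21 ± 0.11. Both Nrp1 and Dcc are widely expressed in developing neurons and vessels and are not particular to GnRH cells.

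**Figure D4:**
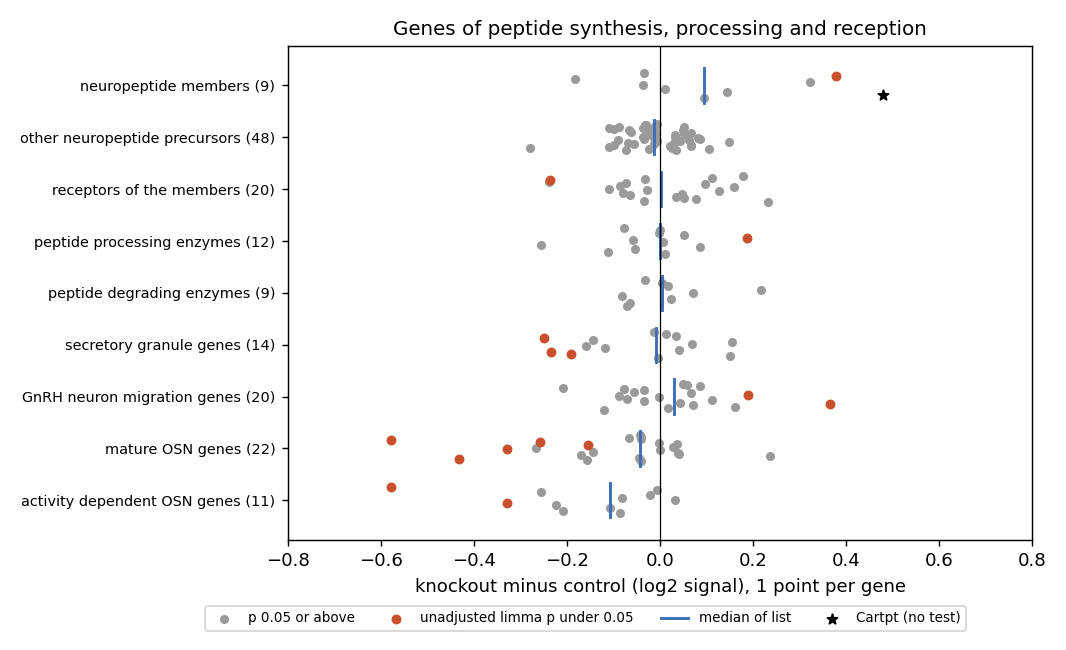
Knockout minus control difference in log2 signal for each gene of 9 lists, with the number of genes measured in parentheses. Orange points had an unadjusted limma p under 0.05, the star is Cartpt, which was not tested, and blue lines are list medians. The 48 other precursors have 0 orange points, and the 3 in the granule list lie below 0.

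Several lists of cells that could contribute peptides were read beside these values. The 12 genes of peripheral ganglia and nerves measured, a possible source of Tac1, Vip and Gal, averaged from 8.07 to 8.29 over the control mice and from 8.19 to 8.22 over the knockouts, with 0 of 12 at an unadjusted p under 0.05. The 10 genes of olfactory bulb and brain neurons averaged 8.66 in control 2, against 8.15 to 8.38 in the other controls. They averaged 8.69 in knockout 1, the mouse with the highest Tac1 and Penk signals, against 8.22 to 8.24 in knockouts 2 to 4. Of the 10, 1, the GABA-synthesizing enzyme gene Gad2, had an unadjusted limma p under 0.05 (0.32 ± 0.11 SE, adjusted p = 0.876). The 22 mature OSN genes averaged 11.4 to 11.7 over the controls and 11.4 to 11.6 over the knockouts, with 16 lower and 6 higher. Of the 22, 5 (22.7%) had an unadjusted limma p under 0.05, all lower, beside 5.17% of all clusters. The 16 lower genes include Omp, at whose locus Cre is inserted in every mouse except control 4. Omp was not among the 5. Of 11 activity-dependent OSN genes, 10 had a lower mean in knockouts, led by S100a5, a calcium-binding protein of mature OSNs (-0.58 ± 0.12, adjusted p = 0.459), which is in both lists. Several other lists had mostly higher means in the knockouts, beside 51.4% of all clusters. They included 5 of 7 ensheathing glia genes, 5 of 7 respiratory ciliated cell genes and 7 of 11 cartilage, bone and muscle genes. The immune cell, sustentacular and gland, and microvillous lists had mostly lower means, with 0 genes at an unadjusted limma p under 0.05. Of 15 immature OSN genes, 9 were lower and 6 higher. Of these 15, 3 (20%) had such a p, all lower, beside 5.17% of all clusters. They were Trib3, whose groups did not overlap, Stmn4 and Gap43 (adjusted p = 0.910 for each). All 7 endothelial and red blood cell genes measured were higher, with 0 of 7 at an unadjusted p under 0.05, and their mean ran from 8.96 to 9.50 in controls and from 9.17 to 9.50 in knockouts. Of 13 basal progenitor genes, 10 were higher and 1, Kit, had such a p, with a mean of 10.6 to 10.8 over the controls and 10.7 to 10.8 over the knockouts. The 3 lower ones were Krt5 (-0.17), Krt14 (-0.20) and Icam1 (-0.25), so the list did not move as 1. The part of any cell type in the differences was not tested.

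After the mean of each group was subtracted, the 9 genes did not vary as 1 set over the 8 mice. Among the 36 pairs, Pearson's r was highest for Gnrh1 with Cck, at 0.71, and lowest for Cartpt with Tac1, at -0.77. The latter was -0.41 with the 2 mice farthest from the median of Cartpt left out. Cartpt with Cck gave 0.67, or 0.31 without the same mice. Tac1 with Penk gave 0.61, which became -0.05 without the 2 mice farthest from the median of Tac1 and so rested on those mice. These values describe 8 arrays that share dissection and normalization and carry no p.

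Over all other clusters, the genes most like Cartpt by the same measure were Med11 (r = 0.985), Jund (0.970), Mau2 (0.970), Atp6v1f (0.967) and Arpc4 (0.959). Without the 2 mice farthest from the median of Cartpt these became 0.936, 0.858, 0.873, 0.835 and 0.804. The genes most opposite were Folh1 (-0.980), Gm10445 (-0.974) and Zfp788 (-0.964), or -0.902, -0.980 and -0.899 without the same mice. With 8 arrays, 49 of 21788 clusters had an r above 0.9 and 35 had one below -0.9. The group-centered r of Cartpt with the mean of the mature OSN genes was 0.25, or 0.54 without control 1 and knockout 1, and that of Gal was 0.83, or 0.85 without control 4 and knockout 3. Gnrh1 had -0.94 with the immature OSN genes (-0.96 without the 2 mice farthest from its median). Its signal ranged over only 0.10 in controls and 0.15 in knockouts. Every neuropeptide gene was compared with several gene lists, and this r was the farthest from 0 of all those values. How often such an r arises over 8 arrays was counted only for Cartpt, so no association of Gnrh1 with immature OSNs is read from it. Sst had 0.74 with the immune cell genes, which became 0.13 without controls 1 and 2. With the basal progenitor genes it had -0.86, which became -0.425 without the same mice.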

How the data were processed

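RNA from whole olfactory mucosa of 8 mice was labelled and hybridised by the authors, and the log2 signals they deposited were produced with Affymetrix Expression Console, per the submitters' processing notes; its version and the normalization algorithm are not given in the sources used here. Array medians ran from 8.64 to 8.68, and the values were used without further normalization. An unrecorded background correction could compress differences at low signal. Of 35557 clusters, 21789 had exactly 1 gene symbol in the platform annotation and were tested, 1621 had several and 12147 were unnamed. Groups came from the genotype labels.

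Knockouts were compared with controls by limma 3.58.1 in R 4.3.3 (lmFit and eBayes, two-sided), with Benjamini-Hochberg adjustment over all 21789 clusters and a threshold of 0.05. The procedure was tested on simulated data. The precision is limited by 4 mice per group. The 9 genes, the pathway and cell type lists and the naming rule were chosen with earlier results of these data known. Up to 3 genes per list with the smallest p were named, or up to 5 for precursors, receptors and processing enzymes, along with list extremes and a few members chosen for their roles after their values were seen. Likeness was Pearson's r after subtracting group means. Promoters came from RefSeq (GRCm38.p6), matched by symbol for 7 of the 9 genes.

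Alternatives were quantile normalization, scaling to mature OSN genes other than Omp, array weights, the methods' t-test, eBayes with trend and robust options, clusters above the median signal, Y-linked signal as a covariate, and leaving out each mouse.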

Additional observations from a re-analysis of the deposited data

How the results depend on the processing

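The size of the Cartpt difference ranged from 0.42 without knockout replicate 4 to 0.59 without knockout replicate 1. Its sign, like that of Tac1, was fixed under most alternatives because the groups do not overlap. The lowest adjusted p of Tac1 was 0.48, with array weights. Scaling to mature OSN genes subtracted 1 value per array, so it shifted the difference of every cluster by the same amount. The median of all clusters moved from 0.0024 to 0.10, and Cartpt became 0.58 and Tac1 0.48. Their size relative to other clusters could not change, so nothing is read from it. The same shift carried Gnrh1 to 0.064 and Vip to 0.066, so their reversed signs follow from it. Gal was -0.025 with array weights and ran from -0.061 to 0.053 with 1 mouse left out. Vip was 0.014 with the Y-linked covariate and ran from -0.091 to 0.035 with 1 mouse left out. The causes of these further changes in Gal and Vip were not tested.

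Among the 8 genes other than Cartpt, 0 passed adjustment in any alternative. The count at an unadjusted p under 0.05 was 1 (Tac1). It was 2 after scaling (with Penk), when 1430 of 21789 clusters reached that level against 1126 as reported. With 1 mouse left out it was 1 to 2. The higher count was without control 1 (with Sst), when 1736 of 21789 clusters reached that level. It was 0 among clusters above the median signal, where Tac1 was not tested and Penk was the only 1 of these genes present. The count with groups that do not overlap was 1 (Tac1), beside 3.1% of all clusters. It was 0 among clusters above the median and 1 to 2 with 1 mouse left out (with Sst without control 1, with Penk without control 4). The share of all clusters was not counted for these alternatives. Each gene had 1 cluster, so the planned use of the cluster with the lowest mean gave no values. No paired analysis was possible because the labels give no shared replicate numbers.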
